A study of Rattus norvegicus with 8 samples.

Results

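Complement is the set of serum and membrane proteins that tag and lyse cells, and its components and regulators were described here in the rat ovary at the level of mRNA. The members were 34 gene names, and a probe counted as a member where its gene name in the array files equalled one of them. Of these names, 32 were found on 39 probes, among 26204 gene names on 30350 usable probes. No probe carried the name C4b or C7. The single C4a probe lists accessions of both C4a and C4b, near-identical neighbouring copies, so which copy it measured is uncertain.

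Ovaries came from 28-day-old immature female rats, and their total RNA was hybridised to Agilent rat arrays in 1 colour. For the 4 arrays labelled PMSG, rats aged 26 days had been injected under the skin with 50 IU of pregnant mare serum gonadotropin (PMSG), which acts mainly like follicle-stimulating hormone, in 0.2 ml of buffered albumin. For the 4 arrays labelled control, rats of that age had received 0.2 ml of the buffer alone. Ovaries were removed 48 h after the injection, and the labels name no strain and no genetic change in either group. The labels do not say whether the 4 samples of a group were separate animals, so the p-values measure only the spread between these samples, which may be technical.

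Complement starts when C1q or a mannose-binding lectin recognises a surface, and the proteases attached to them (C1r and C1s, or the MASPs) cut C4 and C2 to form a C3 convertase. The alternative pathway builds its own convertase from C3 and factor B, and both routes lead through C5 to a membrane pore of C6, C7, C8 and C9. Soluble and membrane-bound regulators hold these steps back. In the ovary, complement proteins are known in follicular fluid, and resident macrophages are a usual source of C1q.

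Levels below are log2 processed signal minus the 75th percentile of the same array, so 0 is the signal of a fairly bright probe. A difference is the mean of the 4 arrays labelled PMSG minus that of the 4 labelled control. A gene was called where limma's adjusted p (Benjamini-Hochberg over all 25303 tested probes) was under 0.05. Levels of different probes were not compared as amounts of mRNA, because each probe has its own response. Summed linear levels of a marker list add its tested probes, so the brightest probes weigh most in them.

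Ovary markers were present: all 5 tested oocyte genes, all 4 granulosa genes and both theca genes were above background in this tissue. All 4 mast cell and all 4 neutrophil genes were above background too, so presence alone does not set the ovary apart. Genes known to follow gonadotropin ran against the labels' direction. The receptor Lhcgr was lower on the arrays labelled PMSG with a difference of -1.93 (limma adjusted p = 0.00114; SE 0.27), and the steroid synthesis genes Star (-2.75) and Cyp11a1 (-3.36) were lower too. Amh, a product of small follicles, was higher by 3.03 (SE 0.29, limma adjusted p = 0.000261). The groups are therefore named by their labels throughout, as arrays labelled PMSG and arrays labelled control. Between 80.8% and 84.6% of probes were well above background on each array, and no spot was saturated. Array 3 labelled PMSG was dimmer than the others, with a 75th percentile of 769 signal units against 983 to 1103. Array 4 labelled PMSG was the lowest of its group in 47.3% of tested probes. Marker lists also differed. The oocyte list rose in all 5 genes, with a median difference of 1.94 and summed linear levels of 2.73 to 4.89 on control and 9.19 to 20.8 on PMSG arrays. All 4 mast cell genes, 6 of 10 genes of oviduct and surface epithelium and 1 of 2 theca genes (Insl3, by 2.60) were called higher. The theca gene Cyp17a1 differed by -0.22 and was not called. In the endothelial list 4 of 6 genes and in the luteal list 3 of 4 were called lower. Those luteal genes are Lhcgr, Star and Cyp11a1, given above, so they add no further observation, and Hsd3b1 (0.07) was not called. In the granulosa list 1 of 4 was called higher (Amh, given above), and Foxl2 (0.19), Fshr (0.34) and Inha (-0.39) were not called. In the neutrophil list 1 of 4 was called lower. Both shares are below that of all tested probes called (34.2%). In bulk tissue, fewer cells of a type and less RNA per cell cannot be told apart.

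The probes behind the main results are given first, as 60-base sequences from the array files with coordinates on build rn4. C1qa and C1qc are shown because their readings parted although their chains form 1 protein, C1r and C1s because they fell, and Clu and Vtn because they rose most.

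C1qa, chr5:155662578-155662637, minus strand: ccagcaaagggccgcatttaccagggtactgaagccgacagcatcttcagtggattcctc
C1qc, chr5:155656638-155656697, minus strand: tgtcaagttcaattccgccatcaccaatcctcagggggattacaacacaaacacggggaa
C1r, chr4:160728630-160728689, plus strand: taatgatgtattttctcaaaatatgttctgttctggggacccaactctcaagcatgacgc
C1s, chr4:160736725-160736784, minus strand: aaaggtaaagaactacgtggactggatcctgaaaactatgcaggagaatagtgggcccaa
Clu, chr15:45404688-45404747, plus strand: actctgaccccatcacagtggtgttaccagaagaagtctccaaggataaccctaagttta
Vtn, chr10:64611899-64612164, plus strand: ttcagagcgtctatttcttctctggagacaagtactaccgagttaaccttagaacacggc

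Each of these has at least 1 reading frame without a stop codon in its 60 bases, and the coordinates of the Vtn probe span more than 60 bases. They are printed in lower case throughout, since no part of a probe stands out.

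Of the 30 member genes with a tested probe, 14 were called, 10 higher and 4 lower on the arrays labelled PMSG. That is 46.7%, where 34.2% of all tested probes were called in either direction. Higher calls made up 17.6% of all tested probes and lower calls 16.6%. The median difference over the 30 genes was 0.44, beside 0.11 over all tested probes. Groups did not overlap in 12 of the 30 genes, and 36.6% of all tested probes were without overlap. A called difference of at least 2-fold was found in 4 genes (Clu, Vtn, Serping1 and C9), and 11.8% of all tested probes had one. All 14 called genes were above background on all 8 arrays. With PMSG arrays 3 and 4 left out together, a choice made after seeing the data, 12 genes were called.

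**Figure D1:**
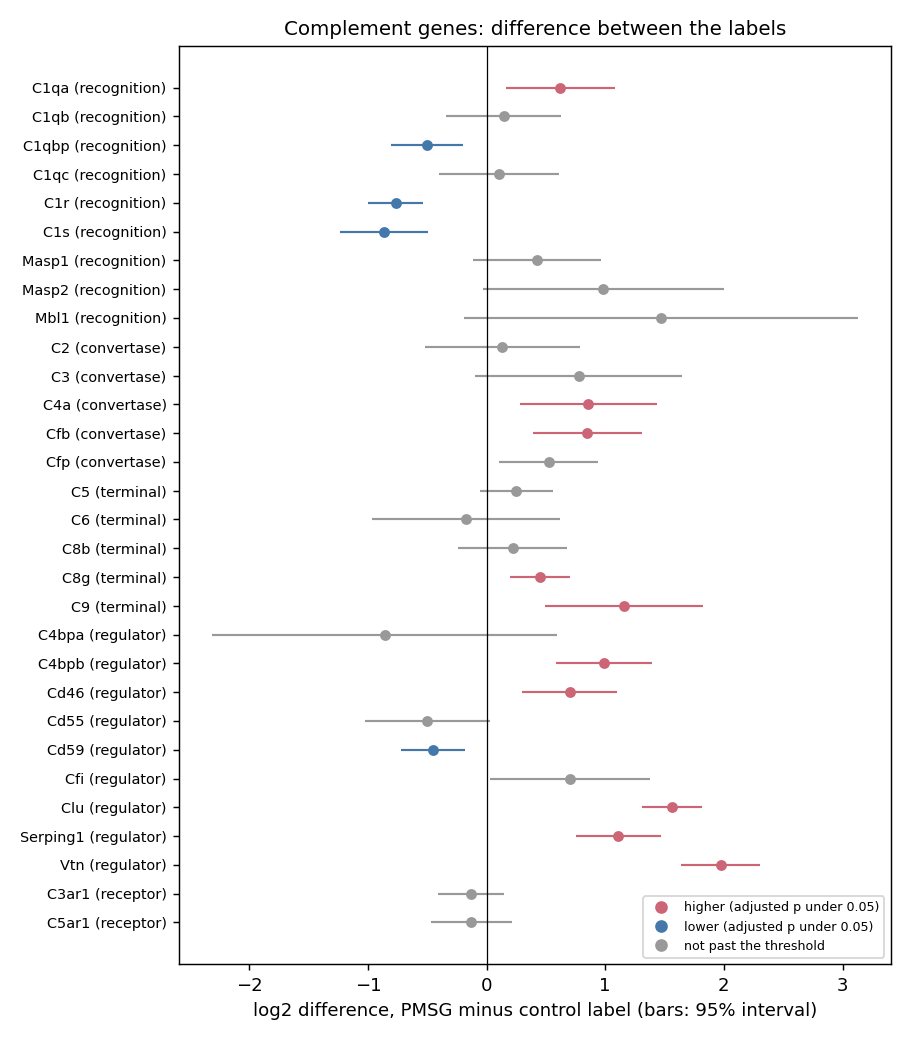
Log2 difference (arrays labelled PMSG minus arrays labelled control) of the 30 tested complement genes, ordered by role, with 95% intervals from the limma fit as bars. The 10 genes called higher, the 4 called lower and the 16 not called are coloured apart; Vtn lies farthest right, at 1.97, and C1s is the lowest of the called genes, at -0.87.

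The group of recognition genes also holds the attached proteases and C1qbp, a binder of C1q, which do not themselves recognise a surface. Among the 10 recognition genes found, C1qa rose, C1qbp, C1r and C1s fell, 5 were not called, and Mbl2 was below background on all 8 arrays. Calls made up 44.4% of the 9 tested, beside 34.2% of all tested probes. C1r and C1s encode the proteases of the C1 complex and lie side by side on chromosome 4. C1r read 2.76, 2.48, 2.73 and 2.69 on control arrays 1 to 4, and 1.80, 1.91, 1.88 and 2.00 on PMSG arrays 1 to 4. All 4 PMSG arrays were below all 4 control arrays. The difference was -0.77 (SE 0.10, limma adjusted p = 0.000825), or 1.70-fold lower. C1s read 3.03, 2.79, 2.96 and 2.93 on the control arrays, and 1.82, 2.28, 1.76 and 2.38 on the PMSG arrays. Here too the groups did not overlap, and PMSG arrays 2 and 4 lay nearest to the controls. The difference was -0.87 (SE 0.16, limma adjusted p = 0.00419), or 1.82-fold lower. In the fibroblast list 4 of 6 tested genes were called higher and 0 lower, with summed linear levels of 170 to 195 on control and 192 to 230 on PMSG arrays. Col1a1, Col1a2 and Col3a1 weighed most in that sum, and of these only Col3a1 was called. The endothelial list summed to 19.96 to 23.4 and 15.4 to 17.1, and the luteal list to 241 to 269 and 111 to 168. Hsd3b1, not called, and Cyp11a1 weighed most in the luteal sum. The part of these cells in the C1r and C1s values was not tested.

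The 3 chains of C1q, the recognition molecule that binds antibody on a surface, lie within a short stretch of chromosome 5. C1qa read 1.49, 1.11, 2.08 and 1.57 on the control arrays, and 2.11, 2.15, 2.44 and 2.05 on the PMSG arrays. Control array 3 reached into the PMSG range, so the groups overlapped. C1qa was 1.54-fold higher, a difference of 0.62 (SE 0.20, limma adjusted p = 0.0434). This call was weak: it was lost in 11 of 20 alternatives, among them the removal of control array 1, 2 or 4 or of PMSG array 1, 2 or 3, where the difference ranged from 0.47 to 0.65 and the adjusted p from 0.0747 to 0.0998. C1qb read 2.67, 2.33, 3.33 and 2.79 on the control arrays, and 2.79, 2.76, 3.19 and 2.95 on the PMSG arrays, with the whole PMSG range inside the control range. Its difference of 0.14 (SE 0.21, limma adjusted p = 0.616) did not pass, with a 95% interval from -0.34 to 0.63. C1qc read -0.38, -0.75, 0.29 and -0.17 on the control arrays, and -0.40, -0.25, -0.00 and 0.04 on the PMSG arrays, which again lay within the control range. Its difference was 0.10 (SE 0.22, limma adjusted p = 0.732; 95% interval -0.40 to 0.61). With median centring, the C1qb and C1qc differences turned to -0.02 and -0.06.

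The chains followed each other closely from array to array. On the control arrays the within-array gap of C1qa minus C1qb ran only from -1.25 to -1.18, although C1qb itself ranged from 2.33 to 3.33. On the PMSG arrays that gap ran from -0.89 to -0.61, a mean shift of 0.48 with no overlap. The gap of C1qa minus C1qc moved in the same way, from a control range of 1.75 to 1.87 to a PMSG range of 2.01 to 2.50. The gap of C1qb minus C1qc overlapped, at 2.96 to 3.08 on the control and 2.90 to 3.19 on the PMSG arrays. So the C1qa probe shifted against both other chains, which did not separate from each other. These gaps are a description of pairs chosen after their values were seen, and carry no test. The macrophage list, 10 tested genes, had 3 called higher (Aif1, Cd68 and Ms4a7) and 0 lower, where 34.2% of all tested probes were called. Cd14 (-0.29), Cd163 (-0.54) and Mrc1 (-0.36) had negative differences and were not called. Csf1r, Emr1, Fcgr1a and Lyz2 had positive differences and were not called either. The summed linear level of the list was 21.9 to 26.1 on control and 25.3 to 30.1 on PMSG arrays. Lyz2, with a control mean of 4.07 and a difference of 0.06, weighed most in that sum. Among pan-leukocyte genes 3 of 6 were higher, at 8.09 to 10.4 and 10.9 to 12.5. The part of these cells in the C1q values was not tested.

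**Figure D2:**
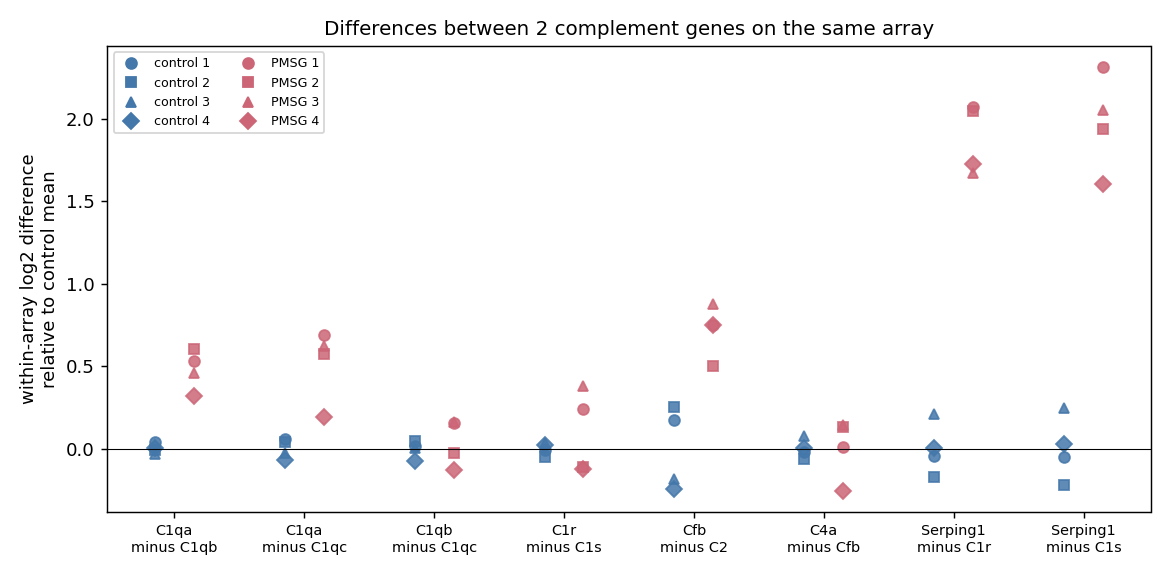
Difference between the log2 values of 2 complement genes on the same array, shown relative to the mean of the 4 control arrays, for 8 pairs, with 1 point per array. C1qa moved against C1qb and C1qc, and Serping1 against C1r and C1s, with no overlap between labels, while C1qb against C1qc, C1r against C1s and C4a against Cfb overlapped.

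C1qbp encodes a mostly mitochondrial protein first found as a binder of C1q. Its probe read 6.02, 6.15, 6.08 and 5.88 on the control arrays, and 5.60, 5.56, 5.74 and 5.21 on the PMSG arrays. The groups did not overlap, and PMSG array 4 was the lowest. C1qbp was 1.42-fold lower, a difference of -0.50 (SE 0.13, limma adjusted p = 0.0205). Without control array 2 the difference was -0.46 (limma adjusted p = 0.0612), and without control array 3 it was -0.49 (limma adjusted p = 0.052), so each removal ended the call. Over the 20 alternatives the adjusted p ran from 0.00195 to 0.0612.

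Masp1 encodes a lectin pathway protease and, by alternative splicing, further proteins that share its first part. Among the 3 members with more than 1 tested probe (C2, Cd55 and Masp1), it was the one whose probes disagreed most. The 3 probes that lie first in genome order are shown because they mark where along the gene the readings were taken.

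A_44_P189476, chr11:79556315-79557485, plus strand: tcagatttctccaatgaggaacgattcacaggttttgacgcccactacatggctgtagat
A_44_P531741, chr11:79581376-79581435, plus strand: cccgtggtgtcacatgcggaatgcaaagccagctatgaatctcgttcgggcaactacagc
A_64_P163358, chr11:79599734-79599793, plus strand: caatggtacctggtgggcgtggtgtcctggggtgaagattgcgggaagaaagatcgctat

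The brightest Masp1 probe, A_44_P189476, read -1.78, -1.52, -1.93 and -1.499 on the control arrays, and -0.80, -1.07, -1.25 and -1.91 on the PMSG arrays. PMSG arrays 1 to 3 lay above all controls and PMSG array 4 among them. Its difference of 0.43 (SE 0.23, limma adjusted p = 0.191) did not pass; without PMSG array 4 it was 0.65 (limma adjusted p = 0.0152, and 0.0152 to 0.40 over all 20 alternatives). The 2 middle probes differed by 0.21 (limma adjusted p = 0.393) and 0.06 (limma adjusted p = 0.78). The fourth probe, A_44_P273777 at chr11:79602404-79602463, has a stop codon in all 3 frames and is not printed. It read -4.23, -4.19, -4.53 and -4.31 on the control arrays, and -2.50, -2.96, -3.07 and -2.75 on the PMSG arrays, with a wide space between the groups. Its difference was 1.497 (SE 0.15, limma adjusted p = 0.000269). Against probe A_64_P163358 on the same array it shifted by 1.44, from a control range of -2.46 to -2.11 to a PMSG range of -1.34 to -0.40. The array files list the same RefSeq transcript for these 2 probes, A_44_P273777 and A_64_P163358. Which transcript each probe reads was not tested.

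**Figure D3:**
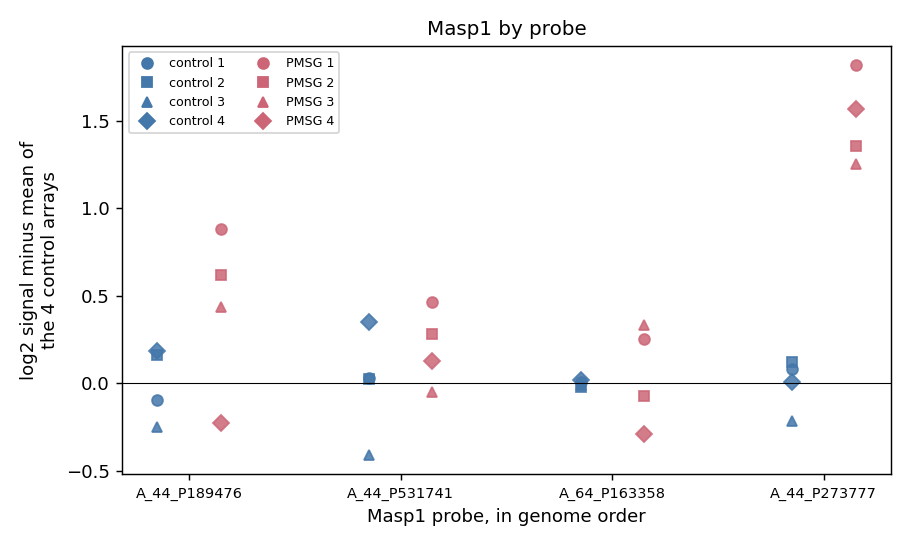
Log2 signal of the 4 Masp1 probes, in genome order, relative to the mean of the 4 control arrays, with 1 point per array. The first 3 probes overlap between labels, and on the fourth (A_44_P273777) every array labelled PMSG lies more than 1 log2 unit above the control mean.

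The remaining lectin pathway genes were dim. Masp2, the protease that cuts C4 and C2, had a probe above background on 3 of 4 control and 4 of 4 PMSG arrays. It read -7.39, -5.62, -5.37 and -5.73, and then -4.81, -4.74, -4.95 and -5.67, so PMSG array 4 fell within the control range. The fitted difference of 0.98 (SE 0.44, limma adjusted p = 0.12) was not called. Its 95% interval, from -0.03 to 1.998, included no change, and the alternatives gave 0.34 to 1.25. The bound from the measured signals was 1.66-fold, which is a ratio of means and no lower limit. The second Masp2 probe was above background on 1 array of each label and was not tested. Mbl1, a mannose-binding lectin, was above background on 2 of 4 control and 4 of 4 PMSG arrays. It read -5.81, -7.29, -6.53 and -8.83, and then -5.43, -5.69, -4.43 and -7.02, with overlap. The fitted difference of 1.47 (SE 0.72, limma adjusted p = 0.149) was not called either. Its 95% interval, from -0.19 to 3.13, also included no change, and the alternatives gave 0.36 to 1.93. The bound was 1.64-fold, again a ratio of means and no lower limit.

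Of the 5 convertase genes found, C4a and Cfb rose, and C2, C3 and Cfp were not called. That is 40% called, near the 34.2% of all tested probes. Cfb encodes factor B, the protease of the alternative convertase. It read 3.70, 3.04, 4.03 and 3.51 on the control arrays, and 4.34, 4.55, 4.52 and 4.28 on the PMSG arrays. All PMSG arrays were above all controls. Cfb was 1.80-fold higher, a difference of 0.85 (SE 0.20, limma adjusted p = 0.0127). C4a, or its copy, read 4.33, 3.63, 4.76 and 4.17 on the control arrays, and 4.996, 5.33, 5.32 and 4.68 on the PMSG arrays. Control array 3 was above PMSG array 4, so the groups overlapped. The C4a difference was 0.86 (SE 0.25, limma adjusted p = 0.0308), or 1.81-fold. The C4a call was lost in 8 of 20 alternatives: without control array 1, 2 or 4, or PMSG array 1, 2 or 3, the difference was 0.66 to 0.90 and the adjusted p 0.0568 to 0.0777.

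C2, the partner protease of the classical convertase, lies next to Cfb on chromosome 20. Its brighter probe read 0.50, -0.24, 1.18 and 0.72 on the control arrays, and 0.55, 1.01, 0.61 and 0.50 on the PMSG arrays, wholly inside the control range. The C2 difference was 0.13 (SE 0.28, limma adjusted p = 0.738; 95% interval -0.52 to 0.78), and its second probe gave 0.15. The C2 difference turned to -0.04 with median centring and to -0.13 without control array 2. Within an array, Cfb minus C2 shifted by 0.72, from a control range of 2.79 to 3.28 to a PMSG range of 3.53 to 3.91. C4a minus Cfb, by contrast, shifted by 0.01, although the C4a probe lies farther from Cfb on that chromosome than C2 does. These gaps, too, are a description and carry no test.

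C3, the protein on which all pathways meet, read -0.53, -0.88, 0.65 and -1.10 on the control arrays, and 0.30, 0.21, -0.09 and 0.82 on the PMSG arrays. Control array 3 stood above 3 of the 4 PMSG arrays. The C3 difference was 0.78 (SE 0.38, limma adjusted p = 0.146; 95% interval -0.09 to 1.65). Without control array 3 it was 1.15 (limma adjusted p = 0.0115), and the other alternatives reached up to 0.313. Cfp, properdin, which stabilises the alternative convertase, ranged from -3.77 to -2.95 on the control and -2.94 to -2.60 on the PMSG arrays. The groups did not overlap, yet the difference of 0.52 (SE 0.18, limma adjusted p = 0.0557) missed the threshold; without control array 3 it was 0.66 (limma adjusted p = 0.0243), and p reached 0.19 in other alternatives.

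Of the 6 terminal genes found, C8g and C9 rose, C5, C6 and C8b were not called, and C8a was below background on all 8 arrays at both probes. Calls made up 40% of the 5 tested, near the 34.2% of all tested probes. C8g encodes the small chain of C8, a lipocalin. It read -2.26, -2.28, -2.26 and -2.22 on the control arrays, and -1.86, -1.96, -1.85 and -1.54 on the PMSG arrays. The control arrays lay close together, below all PMSG arrays. C8g was 1.37-fold higher, a difference of 0.45 (SE 0.11, limma adjusted p = 0.0145), and median centring reduced this to 0.28 (limma adjusted p = 0.22, with 0.00745 as the lowest of the alternatives). C9, the pore-forming subunit, read -5.75, -6.73, -6.12 and -6.26 on the control arrays, and -4.74, -4.75, -4.92 and -5.81 on the PMSG arrays. PMSG array 4 stood apart and overlapped with control array 1. The C9 difference was 1.16 (SE 0.29, limma adjusted p = 0.0162), or 2.24-fold, at signals near background (9.93 to 38.1 units before scaling). In the authors' deposited log2 values the C9 difference was 0.37 (limma adjusted p = 0.264), and over the 20 alternatives p ran from 0.00264 to 0.264.

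Differences were 0.25 for C5 (limma adjusted p = 0.18), -0.18 for C6 (limma adjusted p = 0.71) and 0.22 for C8b (limma adjusted p = 0.416). C5 starts pore assembly, C6 joins its cleaved form, and C8b is the chain of C8 that binds to them. Without PMSG array 4 the C6 difference was 0.03. Many terminal components are made in liver. Of the 7 tested hepatocyte genes 2 were higher, Serpina1 and Tf, and 2 lower, Apoa1 and Ttr, with Alb not called. The list's summed linear level was 12.9 to 16.2 on control and 16.8 to 20.2 on PMSG arrays. Tf and Ahsg weighed most in that sum, with control means of 3.13 and 2.28, where Ttr had -1.17 and the rest less. The list's part in these results was not tested.

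The regulators Vtn and Clu held the largest differences of the members. Of 9 regulator genes found, 5 rose, 1 fell and 3 were not called. That is 66.7% called, beside 34.2% of all tested probes. Vtn encodes vitronectin, which keeps assembled terminal components out of membranes and also binds cells to matrix. It read -1.71, -1.72, -1.46 and -2.07 on the control arrays, and 0.31, 0.37, 0.17 and 0.08 on the PMSG arrays. Every PMSG array lay above 0 and every control array far below it. Vtn was 3.92-fold higher, a difference of 1.97 (SE 0.14, limma adjusted p = 9.03e-05).

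Clu encodes clusterin, a secreted chaperone that also blocks the pore. It read 1.54, 1.31, 1.45 and 1.18 on the control arrays, and 2.97, 3.02, 2.96 and 2.79 on the PMSG arrays. The groups were far apart and each was narrow. Clu was 2.95-fold higher, a difference of 1.56 (SE 0.11, limma adjusted p = 7.88e-05). Serping1 encodes the C1 inhibitor, which removes C1r and C1s from the activated complex. It read 2.72, 2.32, 2.95 and 2.70 on the control arrays, and 3.88, 3.96, 3.56 and 3.73 on the PMSG arrays, with no overlap. Serping1 was 2.16-fold higher, a difference of 1.11 (SE 0.16, limma adjusted p = 0.00115). The inhibitor and its 2 target proteases thus moved in opposite directions: Serping1 minus C1r shifted by 1.88, and Serping1 minus C1s by 1.98. These shifts restate the differences of the single genes and carry no further test. C1r, C1s, Clu, Serping1 and Vtn kept their call in all 20 alternatives.

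**Figure D4:**
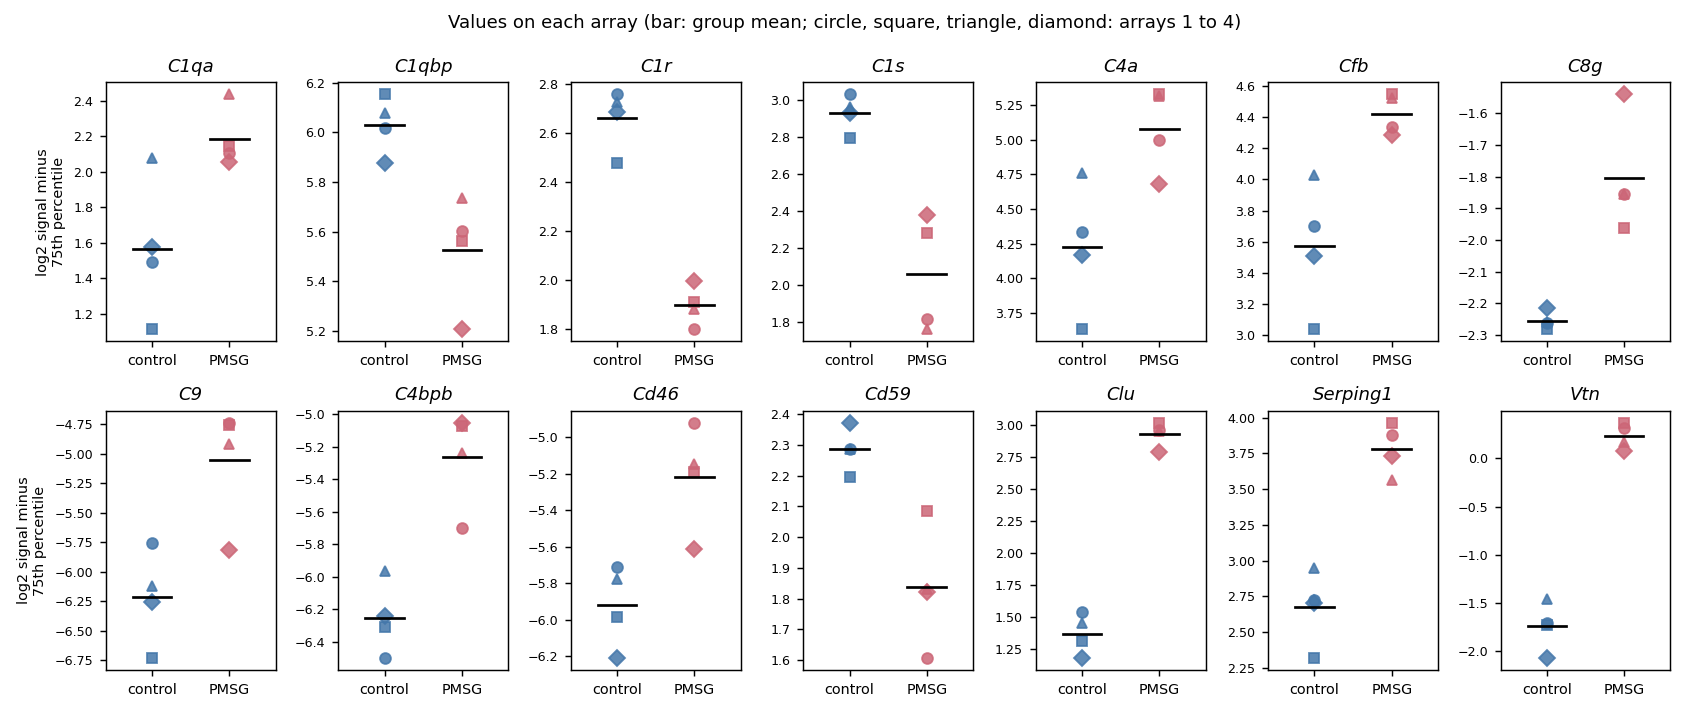
Log2 signal minus the array's 75th percentile on each array for the 14 called complement genes, with the group mean as a bar and arrays 1 to 4 of each label as circle, square, triangle and diamond. Each panel has its own axis; C1qa, C4a and C9 overlap between labels and the other 11 genes do not.

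C4bpb encodes the beta chain of the C4b-binding protein, a soluble brake on the classical convertase. It read -6.50, -6.31, -5.97 and -6.24 on the control arrays, and -5.70, -5.07, -5.24 and -5.05 on the PMSG arrays. The groups did not overlap, but both lay near background. The C4bpb difference was 0.99 (SE 0.18, limma adjusted p = 0.00364), and the call was lost with quantile normalization (0.66, limma adjusted p = 0.0934) and in the deposited log2 values (0.36, limma adjusted p = 0.356), the lowest p of any alternative being 0.00193. C4bpa, the alpha chain, lies next to it on chromosome 13 and was above background on 3 arrays of each label. Its difference was -0.86 (SE 0.63, limma adjusted p = 0.316).

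The 3 membrane regulators did not share a direction. Cd46, a cofactor for the cleavage of C3b and C4b, read -5.71, -5.98, -5.78 and -6.21 on the control arrays, and -4.92, -5.19, -5.15 and -5.61 on the PMSG arrays, without overlap and again near background. The Cd46 difference was 0.70 (SE 0.17, limma adjusted p = 0.0159), and 0.28 (limma adjusted p = 0.088) with normexp background correction, where the lowest p of the alternatives was 0.00451. Cd59, which stops C9 from joining the pore, read 2.29, 2.196, 2.29 and 2.37 on the control arrays, and 1.61, 2.09, 1.83 and 1.82 on the PMSG arrays. All PMSG arrays were below all controls, with PMSG array 2 nearest. Cd59 was 1.37-fold lower, a difference of -0.45 (SE 0.12, limma adjusted p = 0.0196). Its adjusted p was 0.0503 without control array 1 and 0.0585 without control array 4, so either removal ended the call, as did leaving out PMSG arrays 3 and 4 together (0.0684). The Cd59 call was lost in 4 of 20 alternatives in all, with adjusted p from 0.00881 to 0.0684.

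Cd55 encodes decay-accelerating factor, which takes convertases apart. Its brightest probe read -1.498, -1.73, -1.65 and -1.44 on the control arrays, and -2.72, -1.75, -2.19 and -1.65 on the PMSG arrays, with overlap. The difference was -0.50 (SE 0.23, limma adjusted p = 0.126), and -0.64 (limma adjusted p = 0.0481) without PMSG array 4, with p from 0.0278 to 0.241 over the alternatives. Its second probe, A_44_P168159, read -2.99, -3.51, -3.11 and -3.35, and then -4.14, -3.89, -3.94 and -3.75, with no overlap. That probe fell by 0.69 on the log2 scale (SE 0.14, limma adjusted p = 0.00721). Cfi, factor I, the protease that cleaves C3b, read -2.99, -3.30, -2.19 and -3.63 on the control arrays, and -2.09, -2.50, -2.56 and -2.14 on the PMSG arrays. Control array 3 lay among the PMSG arrays. The Cfi difference was 0.70 (SE 0.29, limma adjusted p = 0.0977), and 0.98 (limma adjusted p = 0.0101) without control array 3, with p up to 0.218 in the other alternatives. The receptors C3ar1 and C5ar1, through which the cleaved fragments of C3 and C5 act on leukocytes, were not called. Their differences were each -0.13, with 95% intervals of -0.41 to 0.15 and -0.47 to 0.21.

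Single arrays stood low or high in many complement genes. PMSG array 4 was the lowest of its label in 18 of 30 member genes, beside 47.3% of all tested probes. Control array 2 was the lowest control in 16 of 30 member genes and control array 3 the highest in 17 of 30, where the shares over all tested probes were 25.3% and 29.6%. Both control patterns held at once in 10 genes, or 33.3%, against 9.54% of all tested probes. These genes were C1qa, C1qb, C1qc, C2, C4a, Cfb, C6, C4bpa, Serping1 and C3ar1. The median of control array 3 minus control array 2 was 0.46 over the member genes and 0.04 over all tested probes. The adipocyte list moved with these arrays, with summed linear levels of 32.9, 9.01, 76.9 and 28.6 on the control and 42.4, 53.0, 84.9 and 25.5 on the PMSG arrays. It holds Cfd, the protease factor D, which is a complement gene, and its part in the spread was not tested.

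**Figure D5:**
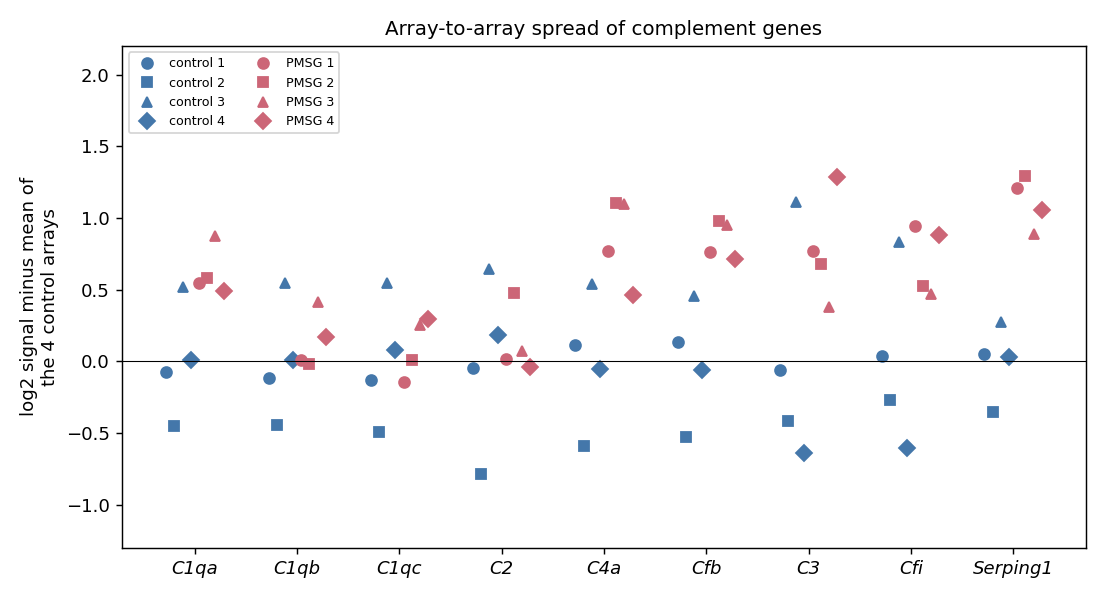
Log2 signal of 9 complement genes relative to the mean of the 4 control arrays, with 1 point per array. Control array 3 (triangle) lies above the other controls in all 9 genes, and control array 2 (square) is the lowest control in 7 of them, with C3 and Cfi the exceptions. These 9 genes are a selection. Over all 30 tested members control array 3 was the highest control in 17 and control array 2 the lowest in 16.

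Other genes of the pathway, from a list outside the members, were read in the same fit. Of 18 tested, 7 were called, 4 higher and 3 lower, which is 38.9% beside 34.2% of all tested probes. Their median difference was 0.12. Ptx3, a pattern recognition protein of the cumulus matrix that binds C1q, was higher by 1.55 (SE 0.40, limma adjusted p = 0.018), and its second probe by 2.35. Susd4, a membrane inhibitor, was higher by 1.49 (limma adjusted p = 0.000279), and its second probe by 0.62 (limma adjusted p = 0.00427). Gpr77, a second receptor for the C5 fragment, was lower by a difference of -1.02 (limma adjusted p = 0.00157). Cfd differed by 0.34 (limma adjusted p = 0.728) and the membrane regulator Cr1l by 0.11 (limma adjusted p = 0.42). Calr, calreticulin, and Cd93, both named as C1q receptors, completed the lower calls with differences of -0.67 and -0.63.

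Promoter sequence was available from RefSeq for 22 of the 34 members, 7 of them called. The 250 bases before the start were searched on both strands for 7 motifs. The STAT motif TTCNNNGAA was found in 4 of the 22, C1qa, C4bpb, C8a and Vtn, and in 7.667% of all 33469 promoters of this length. The sequence TATAAA was found in 0 of the 22 and in 12.931% of all promoters. The other motifs were GAGGAA for PU.1, in 6 of 22 members and 23.341% of all; the NF-kB motif by its name, in 11 and 42.32%; TTNNGNAA for C/EBP, in 10 and 37.19%; CAAGGNCA for SF-1, in 1 and 5.584%; and GGGCGG for the GC box, in 5 and 30.467%. The 3 promoters below are those of the genes called higher that hold the STAT match. That motif was chosen for display after the matches were seen, and a match is a description of letters only. The 250 bases before the start are given on the gene's strand in build GRCr8, with the match in capitals. It begins at -90 in C1qa, -156 in C4bpb and -115 in Vtn, and overlaps no other motif searched.

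C1qa, chr5:154419934-154420183, minus strand: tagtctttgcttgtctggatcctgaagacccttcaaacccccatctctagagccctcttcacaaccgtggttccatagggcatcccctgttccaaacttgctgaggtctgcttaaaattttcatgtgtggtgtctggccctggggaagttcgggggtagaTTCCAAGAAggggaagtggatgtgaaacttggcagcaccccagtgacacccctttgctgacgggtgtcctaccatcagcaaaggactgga
C4bpb, chr13:44683782-44684031, minus strand: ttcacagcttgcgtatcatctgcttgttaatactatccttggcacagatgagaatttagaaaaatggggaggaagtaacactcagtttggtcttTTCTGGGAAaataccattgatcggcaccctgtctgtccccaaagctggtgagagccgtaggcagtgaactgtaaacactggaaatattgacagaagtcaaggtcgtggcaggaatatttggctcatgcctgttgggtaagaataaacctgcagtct
Vtn, chr10:63892532-63892781, plus strand: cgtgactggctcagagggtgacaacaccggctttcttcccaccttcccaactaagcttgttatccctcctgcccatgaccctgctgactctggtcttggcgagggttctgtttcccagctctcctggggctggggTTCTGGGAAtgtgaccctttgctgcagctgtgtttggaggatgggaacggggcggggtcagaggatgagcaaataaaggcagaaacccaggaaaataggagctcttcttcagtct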

How the data were processed

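Ovary RNA of 8 samples, 4 per label, was hybridised to 1-colour arrays with Cy3. The authors took spot intensity from the scans with Agilent Feature Extraction 11.5.1.1, per the file headers, and probe coordinates are on rn4. The authors also deposited log2 values, which followed log2 signal less the 75th percentile of the array, with no centring of probes; these served as an alternative after each column was matched to its array (column medians -3.21 to -2.82).

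Control and outlier spots were left out, log2 processed signals of the spots of a probe were averaged, and the 75th percentile of each array was subtracted. Of 30367 probes, 17 had no usable spot on some array. Probes well above background on at least 4 of 8 arrays were tested with limma's moderated linear model (limma 3.58.1, R 4.3.3), labels only. Benjamini-Hochberg adjustment and a threshold of 0.05 were used. On simulated data the test recovered 66 of 100 changes of 1 log2 unit and 82 of 100 changes of 2, with 7 false calls. Far fewer probes were changed there than were called here. A gene not called may thus still differ. The number of arrays limits the precision. The brightest tested probe stood for a gene. All arrays shared 1 slide and 1 scan day. RefSeq GRCr8 gave promoters and names; 33 of 34 members were symbols there.

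The members, the lists, the roles and the tests were chosen with earlier results of these data known. Every member is named; values on every array are given for called genes, genes with a bound and 11 key genes where measured. Of the other pathway genes, those among the 5 largest called differences, Cfd and Cr1l were named except some not reported here, and Calr and Cd93 were added after their values were seen. A fold bound sets the bright mean against, per dim array, the higher of the lowest signal well above background and the probe's own. It is a ratio of means and no lower limit of an interval. Array removal, block, background, scaling, filter and probe alternatives were run. The check gene Cyp19a1 and a match of probes to proteins were not analysed here.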

Additional observations from a re-analysis of the deposited data

Results flagged for a closer look

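The C9 value of array 4 labelled PMSG lay apart from its group. It read -5.81, where the other arrays of that label read -4.92 to -4.74, and the gap was 0.834 of the group's whole range. This was 1 of 110 groups of 4 arrays examined, among which chance gives about 5.5 such gaps (1 in 20).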

How the results depend on the processing

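The 14 calls among complement genes became 11 to 16 over the alternatives, within 1.5 times of the main count in each; single arrays left out gave 11 to 16. For all tested probes the count of 8658 became 6552 to 11382, and for the 7 other pathway genes 6 to 10. Median centring moved the split over all probes from 4452 higher and 4206 lower to 2914 and 5534, and the median difference of all probes from 0.11 to -0.05; 12 complement genes were then called, 8 higher and 4 lower. The replicate block left 14 complement genes called (11 higher, 3 lower), 16 member probes, 8 other pathway genes and 7346 probes in all; it ended the Cd59 call (adjusted p = 0.0578 by limma) and added Mbl1 (adjusted p = 0.0223 by limma). The replicate numbers are not paired in the labels, and deviations of same-numbered arrays correlated at 0.0444, 0.0361, 0.183 and -0.0192. Differences that turned sign belonged to genes not called. C1qb gave -0.0249 with median centring and -0.00501 without PMSG arrays 3 and 4 together; C1qc gave -0.0646 and -0.0677 there. Single arrays left out gave -0.00531 to 0.33 for C1qb, -0.0613 to 0.28 for C1qc, -0.13 to 0.34 for C2 and -0.46 to 0.0308 for C6, with C1qb, C1qc and C2 turning without control array 2 and C6 without PMSG array 4. C2 gave -0.0370 with median centring, and C3ar1 0.0184 with normexp. The cause was not tested. Slide and scan day could not be fitted as blocks, since each had 1 level. Signals near background limit C9, C4bpb, Cd46, Masp2 and Mbl1.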
